A study of Mus musculus with 9 samples.

Results

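Immunoglobulin gene segments, the pieces of DNA from which antibody genes are assembled, were described in RNA of the mouse hippocampus. They were the genes that the deposited table gives the biotype of an immunoglobulin V, D, J or C gene, 264 of 54532 genes in all. Of these, 218 were V, 19 D, 14 J and 13 C (constant region) genes. The heavy chain locus, on chr12:113254830-116000461, held 144 of them, the kappa light chain locus, on chr6:67555497-70726966, held 108, and the lambda light chain locus, on chr16:19061618-19260859, held 12 (mm10, equal to GRCm38). At least 1 read in the 9 libraries was found for 105 members (86 V, 1 D, 7 J and 11 C), and the other 159 were listed at 0 in every library. The detected members were selected on the reads in these same libraries, more than 0 in any of them, so this split is a description.

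Hippocampal RNA was sequenced in 3 groups of 3 samples of C57BL/6 mice, labelled male and aged 6 to 8 weeks when bought, although the study's methods describe females. Con mice ate a standard diet, and HMD mice ate 1 rich in methionine during 8 weeks. Bet+HMD mice ate the methionine-rich diet (HMD) over the same 8 weeks and afterwards were given betaine, which donates methyl groups, at 2.5% (w/v) in their water during 2 weeks. The sources do not say whether the methionine diet was kept up while betaine was given, and no group received betaine without the diet. Ages are given at purchase alone. If Con and HMD mice were sampled after 8 weeks, Bet+HMD mice were 2 weeks older, and betaine cannot be told apart from age. Strain labels were not uniform, as the 3 Bet+HMD samples were labelled C57BL/6, C57BL/7 and C57BL/8. The labels do not state that each sample was a separate animal, so p-values measure the spread between these samples. The Bet+HMD samples appear only in the later of 2 deposited tables, and an effect of betaine cannot be told apart from one of a separate processing round.

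An antibody is made of heavy chains and light chains. In a developing B cell a heavy chain gene is assembled by joining 1 V, 1 D and 1 J segment, and a light chain gene by joining 1 V and 1 J segment, with a different combination in each B cell. The joined segments are transcribed together with a constant region gene, and the heavy constant gene sets the class of the antibody: Ighm for IgM, Ighd for IgD, the Ighg genes for IgG subclasses, Ighe for IgE and Igha for IgA. Switching from IgM to another class and antibody secretion are known from activated B cells and plasma cells. Healthy brain tissue holds few such cells, which lie mainly in the meninges and vessels, and hippocampal neurons and glia are not known as sources of antibody.

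The libraries held 16031464 to 18291952 reads assigned to genes. The Bet+HMD libraries stood apart from the others: a read was assigned to 25315 to 25663 genes in each of them and to 20816 to 23272 genes in each Con or HMD library. They were also closer to each other than the libraries of the other groups were. The chi-square statistic per degree of freedom over genes was 3.10 to 4.47 between pairs of Bet+HMD libraries, 24.9 to 46.4 between Con libraries and 12.8 to 24.3 between HMD libraries, where 1 stands for sampling noise alone. In the immunoglobulin members alone it was 2.19 to 2.71 between Bet+HMD libraries, 2.05 to 5.57 between Con and 4.02 to 6.38 between HMD libraries. The values for the members alone rest on 5 to 7 members in each Con pair, 5 to 6 in each HMD pair and 15 to 19 in each Bet+HMD pair. Over all genes no pair was within sampling noise, and all libraries were counted as samples, as labelled. Whether the Bet+HMD libraries came from separate animals was not tested. Markers of the labelled tissue were present, as 10 neuronal genes of the hippocampus summed to 4033 to 4712 reads in every 1000000 assigned reads of each library.

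Members are shown first by the sequences of 4 V segments that, in the later table, had reads in all 3 Bet+HMD libraries and in no other library, because they have the most reads of the segments with this pattern. Ighv1-74 is an exception in the earlier table, with 4 reads in HMD 2. The runs are coding sequence of the V exon from GRCm38 with GENCODE M21 annotation, read 5′ to 3′ on the coding strand, the minus strand for all 4. The first pair, Ighv1-80 (chr12:115912344-115912643) and Ighv1-82 (chr12:115952538-115952837), are close copies of each other, and capitals mark the 12 bases at which the 300 bases shown differ.
Ighv1-80: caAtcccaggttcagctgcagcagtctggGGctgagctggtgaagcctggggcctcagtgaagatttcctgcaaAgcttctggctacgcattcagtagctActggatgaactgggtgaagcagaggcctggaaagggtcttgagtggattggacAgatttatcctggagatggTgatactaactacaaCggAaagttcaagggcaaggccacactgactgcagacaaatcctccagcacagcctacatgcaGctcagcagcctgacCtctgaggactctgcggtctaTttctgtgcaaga
Ighv1-82: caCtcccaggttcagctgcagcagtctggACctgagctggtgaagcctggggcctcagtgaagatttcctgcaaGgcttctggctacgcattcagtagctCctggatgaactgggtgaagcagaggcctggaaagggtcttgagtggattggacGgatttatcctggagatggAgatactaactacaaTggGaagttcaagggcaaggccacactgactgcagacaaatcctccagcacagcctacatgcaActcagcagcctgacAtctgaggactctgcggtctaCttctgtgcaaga
In the second pair, Igkv4-80 (chr6:69016558-69016856) and Ighv1-74 (chr12:115802648-115802947), capitals mark the last in-frame cysteine codon, the conserved cysteine that precedes the third hypervariable loop of the antibody.
Igkv4-80: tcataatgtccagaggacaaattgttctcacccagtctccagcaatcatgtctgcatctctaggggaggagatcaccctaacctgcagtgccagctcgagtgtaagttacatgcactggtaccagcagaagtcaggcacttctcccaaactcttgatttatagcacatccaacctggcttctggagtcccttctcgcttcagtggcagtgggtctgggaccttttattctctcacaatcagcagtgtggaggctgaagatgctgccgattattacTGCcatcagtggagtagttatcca
Ighv1-74: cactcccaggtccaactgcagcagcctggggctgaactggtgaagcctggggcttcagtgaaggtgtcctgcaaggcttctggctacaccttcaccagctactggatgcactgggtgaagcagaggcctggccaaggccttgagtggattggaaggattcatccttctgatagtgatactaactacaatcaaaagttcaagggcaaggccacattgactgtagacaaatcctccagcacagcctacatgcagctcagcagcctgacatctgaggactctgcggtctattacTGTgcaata
Close copies of this kind share long identical runs, so reads can be assigned to the wrong copy or left out, and values of single V segments are uncertain for that reason. Over the whole V exon Ighv1-80 and Ighv1-82 were 96.1% identical. Igkv4-80 was 91.7% identical to its closest member, Igkv4-57, and Ighv1-74 was 96.1% identical to Ighv1-69. Igkv4-57 and Ighv1-69 each had 2 reads in the 9 libraries together. Somatic mutation in B cells changes V sequences further, which alignment to a reference does not follow.

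Immunoglobulin RNA was scarce in every library and highest in the Bet+HMD libraries. The members together had 294, 382 and 340 reads in the Con libraries, 408, 355 and 335 in the HMD libraries and 607, 759 and 762 in the Bet+HMD libraries. Per 1000000 assigned reads (RPM) these were 19.6 ± 3.26 RPM in Con, 21.8 ± 1.71 in HMD and 42.4 ± 5.07 in Bet+HMD (mean ± SD, n = 3 each). Con and HMD overlapped, and every Bet+HMD library was above every other library. In bulk tissue more cells of a type and more RNA per cell cannot be told apart. Constant region genes held 3449 of the 4242 reads, V segments 768, J segments 24 and D segments 1.

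V segments differed more between groups than constant region genes. Their summed level was 1.63 ± 0.467 RPM in Con, 2.19 ± 0.424 in HMD libraries and 11.4 ± 1.91 in Bet+HMD libraries (SD, n = 3). Constant region genes summed to 17.9 ± 2.77, 19.6 ± 1.44 and 30.6 ± 3.22 RPM (SD, n = 3). For each 100 reads of constant region genes there were 7.33 to 10.5 reads of V segments in Con libraries, 9.51 to 13.1 in HMD libraries and 34.9 to 41.2 in Bet+HMD libraries. The sums got no test, because the members were chosen with results of these data known.

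**Figure D1:**
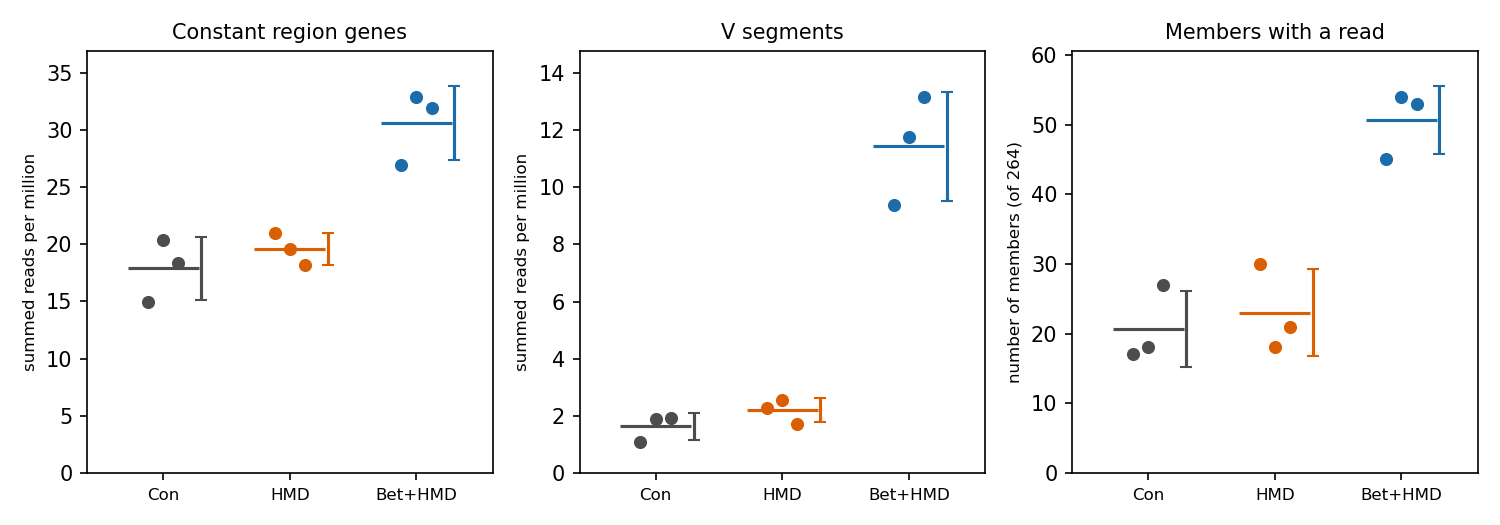
Summed RPM of the constant region genes (left) and of the V segments (middle), and number of members with at least 1 read (right), by group. Points are libraries, lines are means and bars are SD (n = 3). On each axis the 3 Bet+HMD libraries lie above the 6 other libraries, and the V segments run from 1.09 to 2.56 RPM in Con and HMD and from 9.40 to 13.2 in Bet+HMD.

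More members were detected in the Bet+HMD libraries. At least 1 read was assigned to 17, 18 and 27 members in Con, to 30, 18 and 21 in HMD and to 45, 54 and 53 in Bet+HMD. After thinning each library to the depth of the smallest one, the expected number was 20.2 members on average in Con, 22.5 in HMD and 49.97 in Bet+HMD, so the difference was as large at equal depth. Of the 105 members with a read, 37 had reads in Bet+HMD alone, 12 in Con alone and 12 in HMD alone, and 20 had reads in all 3 groups. Members at the edge of detection were many: 20 had a single read in the 9 libraries together, and 68 had 3 reads or more. The larger number of genes detected over the whole table in Bet+HMD libraries moved in the same direction, and its part in these counts was not tested.

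The constant gene of IgM, Ighm (chr12:113418558-113422730, minus strand), had the most reads of any member. It had 131, 124 and 143 reads in Con, 132, 118 and 121 in HMD and 140, 203 and 158 in Bet+HMD. All HMD libraries lay below all Bet+HMD libraries, while Con and Bet+HMD overlapped. Its level per gene length, in fragments per kilobase of gene and 1000000 reads (FPKM), was 4.11 ± 0.300 (SD, n = 3) in Con, 3.97 ± 0.151 in HMD and 5.06 ± 0.930 in Bet+HMD. Ighd, the constant gene of IgD, which naive B cells transcribe together with Ighm, had 0 to 4 reads in Con and HMD libraries and 1, 6 and 4 in Bet+HMD libraries, so that the groups overlapped.

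The constant gene of IgG2c, Ighg2c (chr12:113285325-113288932, minus strand), had the largest rise among the constant genes. IgG2c is the IgG subclass that C57BL/6 mice carry in place of IgG2a and that is known from antiviral and type 1 responses. Reads of Ighg2c numbered 14, 12 and 13 in Con, 44, 33 and 18 in HMD and 142, 158 and 165 in Bet+HMD. The 3 groups did not overlap, with Con lowest and Bet+HMD highest. Of the 19 members with at least 20 reads in the 9 libraries, it was the only 1 that did not overlap between HMD and Con, beside 10.1% of all genes with as many reads (5.05% higher and 5.02% lower in HMD). The ratio of RPM was 2.52 for HMD against Con (95% interval 1.72 to 3.75), 4.91 for Bet+HMD against HMD (3.93 to 6.19) and 12.4 for Bet+HMD against Con (8.90 to 17.6). Such intervals hold counting error and nothing else, since the reads had no molecular identifiers and may be copies of 1 molecule.

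The other IgG genes did not follow 1 pattern. Ighg2b (chr12:113302965-113307933, minus strand), for IgG2b, had 5, 13 and 15 reads in Con, 4, 14 and 15 in HMD and 20, 32 and 32 in Bet+HMD. Con and HMD covered nearly the same range, and the Bet+HMD libraries lay above both, at 2.55 times the HMD level (1.69 to 3.95). Ighg1 (chr12:113325240-113330523, minus strand), for IgG1, the subclass known from type 2 responses, had 6, 7 and 2 reads in Con, 6, 33 and 3 in HMD and 0, 1 and 0 in Bet+HMD. A single library, HMD 2, held 33 of its 42 reads in HMD, and the ratio of HMD to Con, 2.89 (1.57 to 5.61), rested on it. Ighg3, for IgG3, had at most 3 reads in any library, and Ighe, for IgE, was listed at 0 in all 9.

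The constant gene of IgA, Igha (chr12:113254830-113260236, minus strand), went the other way from the IgG2 genes. IgA is the main antibody of mucosal surfaces, and IgA plasma cells are also known from the meninges. Igha had 59, 76 and 67 reads in Con, 87, 47 and 62 in HMD and 16, 18 and 21 in Bet+HMD. Con and HMD overlapped, and each Bet+HMD library held fewer reads than any other library. The Bet+HMD level was 0.282 times that of HMD (95% counting interval 0.205 to 0.381) and 0.282 times that of Con (0.205 to 0.382).

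Among the light chains, kappa carried nearly all reads. Igkc (chr6:70726435-70726966, plus strand), the single kappa constant gene, had 57, 109 and 59 reads in Con, 87, 67 and 81 in HMD and 126, 134 and 152 in Bet+HMD. Con 2 lay far above the other Con libraries but below each Bet+HMD library. Per length, Igkc had the highest level of all constant genes in each group, at 8.35 ± 3.73 FPKM in Con, 8.88 ± 0.608 in HMD libraries and 14.8 ± 1.46 in Bet+HMD libraries (SD, n = 3). Igkc overlaps the long noncoding gene Gm30211, which had no read in any library. The lambda constant genes Iglc1 and Iglc2 had 0 to 5 reads a library with all groups overlapping, Iglc3 had 1 read in all and Iglc4 was listed at 0.

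**Figure D2:**
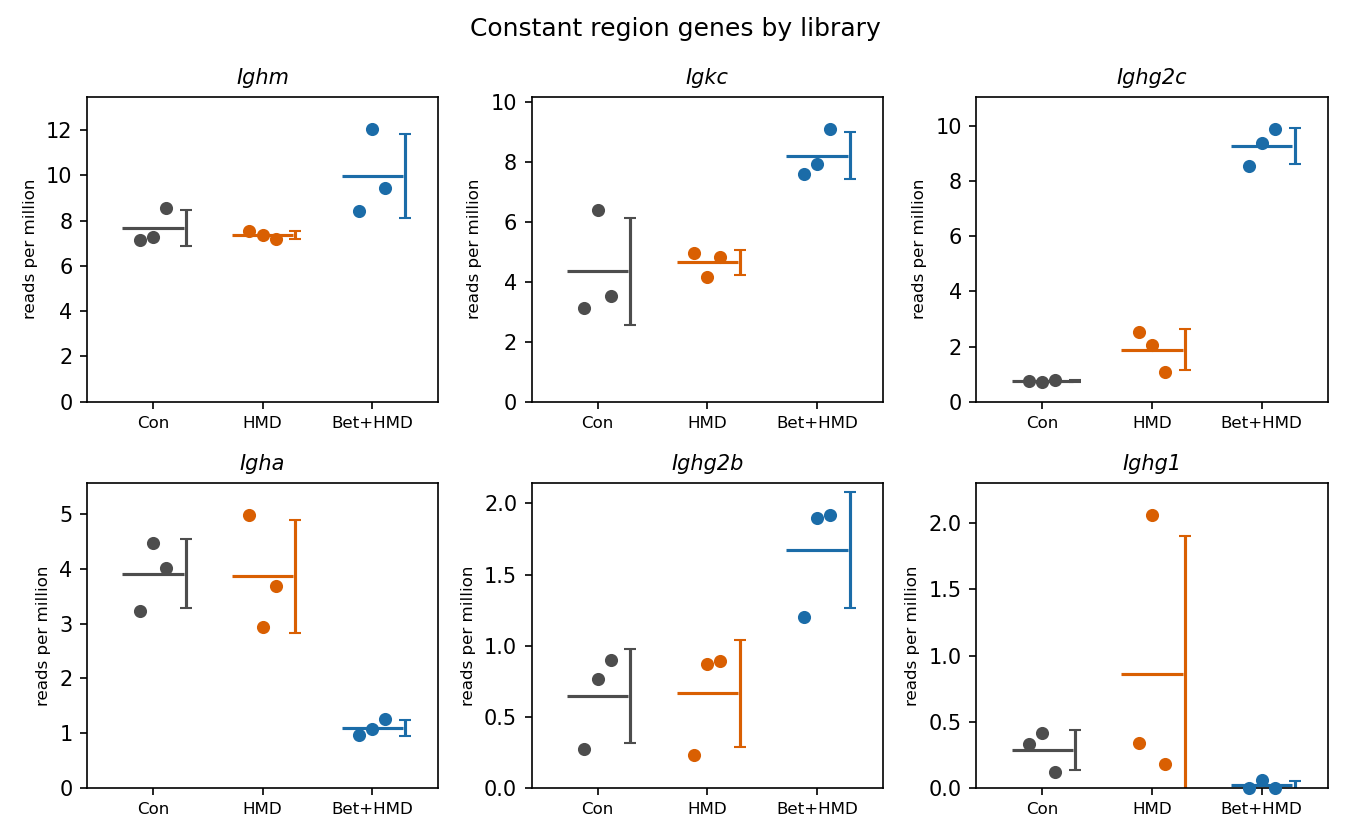
RPM of 6 constant region genes by group, each panel on its own linear axis from 0. Points are libraries, lines are means and bars are SD (n = 3), with the SD of Ighg1 in HMD cut off at 0. Ighg2c, Igkc and Ighg2b are highest in the 3 Bet+HMD libraries, Igha and Ighg1 are lowest there, and 1 HMD library holds most Ighg1 reads.

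As shares of the reads of all heavy constant genes, the classes were distributed differently in Bet+HMD. The shares are not corrected for gene length and are compared only between groups. Ighm made up 57.6% of these reads on average in Con, 49.9% in HMD and 44.6% in Bet+HMD. Ighg2c made up 5.17% to 6.48% in Con libraries, 8.04% to 15.9% in HMD libraries and 37.8% to 44.5% in Bet+HMD libraries. Igha ran the other way, at 27.3% to 32.8%, 19.2% to 31.4% and 4.31% to 5.51%. Within each Con library Igha had more reads than Ighg2c, and within each Bet+HMD library it had fewer.

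**Figure D3:**
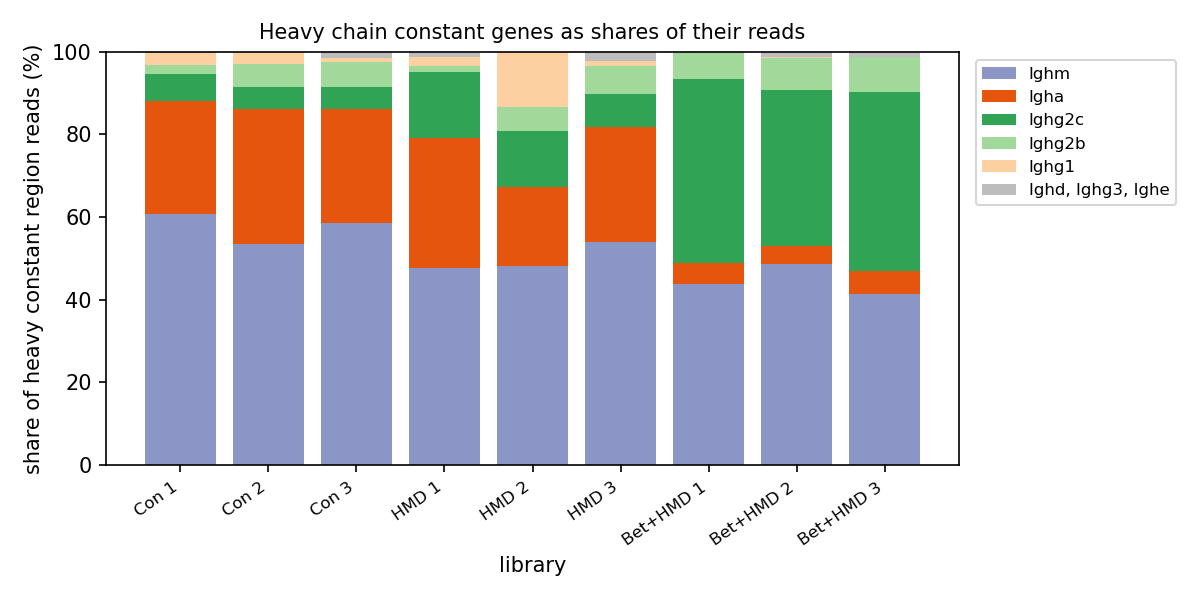
Stacked bars give the share (%) of the heavy constant region reads of each library that came from each gene. Ighg2c takes 37.8% to 44.5% in the Bet+HMD libraries and at most 15.9% elsewhere, and Igha takes 4.31% to 5.51% there and at least 19.2% elsewhere.

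The V segments supply the antigen-binding part of each chain. Of the 218 V segments, 12 had 20 reads or more in the 9 libraries together, and 8 had reads in all 3 Bet+HMD libraries and in no Con or HMD library. The segment with the most reads, Ighv1-80, had 26, 26 and 28 reads in Bet+HMD and none in the 6 other libraries. Igkv4-80 had 21, 27 and 13, and Ighv1-74 had 13, 6 and 19, again with none elsewhere in the later table. The earlier table of the Con and HMD libraries gave 4 reads to Ighv1-74 and 2 to Ighv1-81 in HMD 2, so their absence from HMD and the bound for Ighv1-74 hold for the later table alone. Against a floor of 3 reads per library, Ighv1-80 was at least 8.92-fold higher in Bet+HMD than in HMD, Igkv4-80 at least 6.80-fold higher and Ighv1-74 at least 4.24-fold higher. The remaining 5 of the 8 had fewer reads. Ighv1-82 had 9, 5 and 13 reads, Igkv10-94 had 4, 7 and 12, and Igkv3-4 had 9, 7 and 5. Igkv5-43 and Ighv1-81, with 12 and 7 reads in all, had under 20 and are named to complete the 8, chosen after their values were seen.

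Presence in all 3 Bet+HMD libraries and absence from the 6 others was also counted over all genes. Among the genes with at least 20 reads in the 9 libraries it was found for 36 of 21082, or 0.171%, and 6 of these 36 were V segments. Genes with this pattern reached 20 reads through the Bet+HMD libraries alone. The 21082 genes also include well-expressed ones that could hardly be absent from 6 libraries, so 0.171% is no baseline for segments of few reads. The count describes a pattern noticed in these data and was not tested.

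Other V segments had reads in more than 1 group. Igkv10-96 had 3, 4 and 2 reads in Con, 0, 0 and 3 in HMD and 7, 17 and 25 in Bet+HMD, where all libraries were above all others. Igkv19-93 had 4 reads in HMD 1, none in the other Con and HMD libraries and 12, 5 and 12 in Bet+HMD. Igkv3-10 had 1 read in HMD 3 and 1, 12 and 7 in Bet+HMD. Bet+HMD and the other groups did not overlap for the first 2 of these, and Igkv3-10 had 1 read both in HMD 3 and in Bet+HMD 1. The groups overlapped for the next 3. Igkv1-117 had 0 to 5 reads in Con and HMD libraries and 2, 4 and 9 in Bet+HMD, and its close copy Igkv1-110, 96.8% identical, had 10 reads in Con 2, 5 in HMD 1, 4 in HMD 3 and at most 1 in any Bet+HMD library. Ighv3-6 had 0 to 5 reads in every group, with 7 reads in Con, 8 in HMD and 7 in Bet+HMD.

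**Figure D4:**
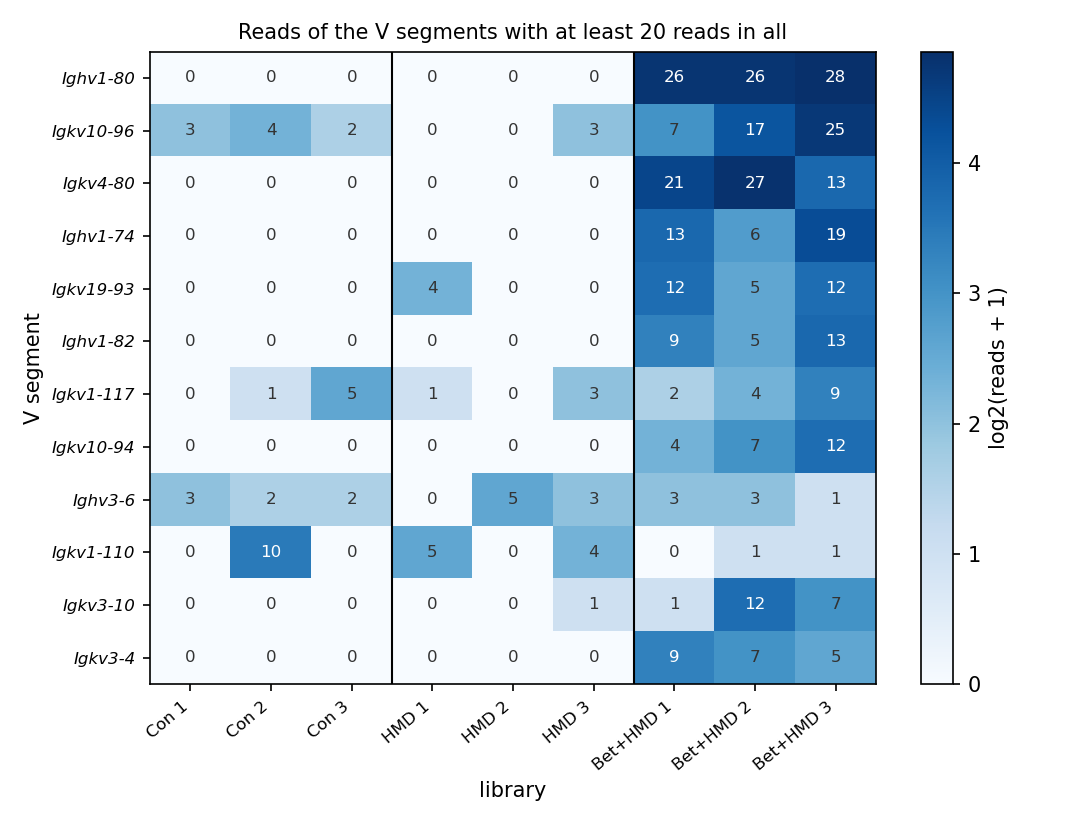
Reads in each library (columns) of the 12 V segments with at least 20 reads in all (rows, by total reads). Numbers are reads and the color is log2(reads + 1). The first row, Ighv1-80, has 26, 26 and 28 reads in the Bet+HMD libraries and 0 in all others, and Ighv3-6 has reads in all 3 groups.

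The same V segments recurred among the Bet+HMD libraries. All 3 libraries of the group had a read for 19 V segments in Bet+HMD, for 2 in Con (Ighv3-6 and Igkv10-96) and for 0 in HMD, out of 62, 29 and 37 V segments with a read in the group. With at least 2 reads asked for in each library these were 14, 2 and 0. A pair of Bet+HMD libraries shared 21 to 27 V segments, which held 77.8% to 89.7% of the V reads of each. A pair of Con libraries shared 2 to 3, a pair of HMD libraries 1 to 4, and a Bet+HMD library shared 2 to 11 with a Con or HMD library. More V reads give more shared segments, so the libraries were also thinned to 20 V reads each. The expected number shared was then 5.19 to 5.61 for pairs of Bet+HMD libraries, 1.73 to 2.85 for pairs of Con, 0.372 to 3.06 for pairs of HMD and 0.347 to 4.27 for pairs from different groups. Among these values no pair outside Bet+HMD reached the Bet+HMD range. The thinning was chosen after the data were seen. The Bet+HMD libraries also differed least among themselves over all genes, as given above, and its part in the shared segments was not tested.

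**Figure D5:**
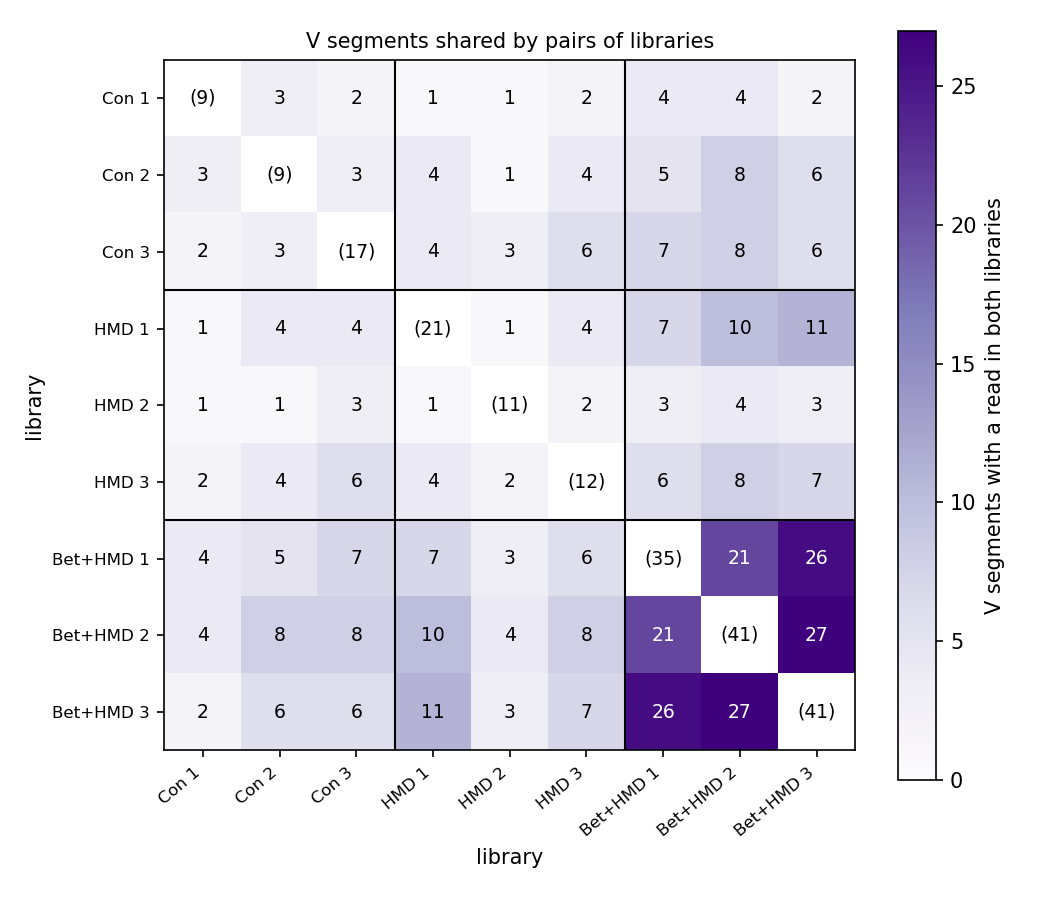
Number of V segments with at least 1 read in both libraries of a pair, for the 9 libraries. Numbers in parentheses on the diagonal are the V segments with a read in that library. Pairs of Bet+HMD libraries share 21 to 27, and all other pairs share 1 to 11.

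In the heavy locus the V segments read in all 3 Bet+HMD libraries and in no other library of the later table lay close together. The V segments extend from 149 to 2570 kb from the nearest J segment. The 4 heavy V segments read in all 3 Bet+HMD libraries alone, Ighv1-74, Ighv1-80, Ighv1-81 and Ighv1-82, lay 2373 to 2523 kb from it, Ighv1-74 and Ighv1-81 being those with reads in HMD 2 in the earlier table. They lay within 1 stretch of 150.4 kb on chr12:115802648-115953005 that holds 8 of the 113 heavy V segments. All 4 belong to the Ighv1 family, the largest of the mouse heavy locus. Heavy V segments with reads in fewer Bet+HMD libraries and in no other group were spread more widely, from 535 kb (Ighv3-1) to 2439 kb (Ighv1-78). Among them, Ighv1-9 at 1154 kb had 16 reads.

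D and J segments are short and gave little. D segments, 10 to 29 bases long, had 1 read in all, of Ighd4-1 in Bet+HMD 2. The 14 J segments, 38 to 100 bases long, had 24 reads, with 1 to 3 in each Con library, 0 to 1 in each HMD library and 4 to 8 in each Bet+HMD library. Ighj1 had 1, 3 and 1 reads in Con, 0 in each HMD library and 1, 0 and 3 in Bet+HMD. At 9 reads it had the most of any J segment, and Ighj2 followed with 6. Segments of this length are shorter than a read, and many reads across a joined antibody gene start or end in V or C.

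The comparison of HMD with Con asks what the high-methionine diet alone changed. In limma's linear model on log2(FPKM + 1), with Benjamini-Hochberg adjustment over all genes tested, 0 of the 4 members tested passed an adjusted p of 0.05, beside 0 of 13004 genes (0%). At an unadjusted p under 0.05 there were 1 of the 4 members and 588 genes, and limma voom on recovered reads called 0 as well. That member was Ighg2c, with a log2 difference of 0.61 ± 0.20 (SE, n = 3 against 3), an unadjusted p of 0.0175 and an adjusted p of 0.979. Its adjusted p ran from 0.366 to 1.00 over the alternatives. Igkc, Ighm and Igha differed by 0.15 ± 0.25, -0.04 ± 0.10 and -0.01 ± 0.16 on the same scale.

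The comparison of Bet+HMD with HMD asks what differed once betaine had followed the diet. Of the 264 members, 7 passed the filter of a mean of 1 FPKM, and 6 of the 7 were called, all higher, against 48.3% of all 13672 genes tested, or 22.8% called higher. The V segments Ighv1-80, Igkv4-80, Ighv1-74 and Igkv10-96 passed the filter only through the Bet+HMD libraries and so had to differ, and the count is no support. With a log2 difference of at least 1 asked for as well, 5 members and 8.93% of all genes were called. Ighg2c rose by 1.68 ± 0.18 on the log2(FPKM + 1) scale (SE, limma adjusted p = 0.000405) and Igkc by 0.67 ± 0.092 (adjusted p = 0.00114). Ighm differed by 0.27 ± 0.12 (limma adjusted p = 0.0905) and did not pass. It passed only with values rescaled to TPM, in which every library has the same sum (limma adjusted p = 0.0201). The median log2 difference over all genes was then 0.16. Values on the log2(FPKM + 1) scale understate the change of low genes. For Ighv1-80 the fitted difference was 2.42 ± 0.11 (SE), and for Igkv4-80, Igkv10-96 and Ighv1-74 it was 2.08, 1.57 and 1.55.

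Igha was under the filter in both comparisons with Bet+HMD, and with genes of a mean of at least 10 reads tested in place of the FPKM filter it fell by 0.81 ± 0.12 against HMD (SE, limma adjusted p = 0.00117) and by 0.83 ± 0.10 against Con (adjusted p = 0.000997). Ighg2b rose under the same filter by 0.35 ± 0.11 against HMD (limma adjusted p = 0.0365) and by 0.36 ± 0.11 against Con (adjusted p = 0.0317). Without any filter Igha still passed and Ighg2b did not, with an adjusted p of 0.0958 and 0.0808. Of the 19 members with at least 20 reads, 13 lay higher in RPM and 2 lower in every Bet+HMD library than in every HMD library, Igkv3-10 among them with 1 read in both HMD 3 and Bet+HMD 1, beside 52% of all genes with as many reads (28.9% higher and 23.1% lower). Against Con these were 12 higher and 2 lower, beside 49% of genes (27.9% higher and 21.1% lower). Members that reached 20 reads through the Bet+HMD libraries had to differ, so these counts are a description.

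The comparison of Bet+HMD with Con sets both treatments against the standard diet, and it shares the Bet+HMD libraries with the comparison above. Of 8 members tested 6 were called, all higher, against 39.7% of all 13643 genes, or 19.4% called higher. Here too Ighv1-80, Igkv4-80, Ighv1-74, Igkv10-96 and also Ighg2c, at 0.572 ± 0.013 FPKM in Con (SD, n = 3), passed the filter only through the Bet+HMD libraries and had to differ, so the count is no support. With a log2 difference of at least 1 these were 5 members and 8.74% of all genes. With the filter of 10 reads, which its Con libraries meet on their own, Ighg2c rose by 2.29 ± 0.095 on the log2(FPKM + 1) scale (SE, limma adjusted p = 8.89e-05). Igkc rose by 0.82 ± 0.25 (limma adjusted p = 0.0394), a call lost when any of the libraries Con 1, Con 3, Bet+HMD 1, Bet+HMD 2 or Bet+HMD 3 was left out or no filter was used, with adjusted p-values of 0.0837 to 0.121. The fitted difference of Igkv10-96 was 1.19 ± 0.30, and its call was lost without Con 1, Bet+HMD 2 or Bet+HMD 3. Ighv1-80, Igkv4-80 and Ighv1-74 had the same fitted differences as against HMD, since both groups were at 0. Ighm differed by 0.24 ± 0.12 (limma adjusted p = 0.175, or 0.0415 with TPM) and Ighj1 by -0.37 ± 0.55 (adjusted p = 0.621), and neither passed on FPKM.

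Genes of the cells that make antibodies were followed beside the segments. The 20 B cell genes summed to 12.0 ± 0.845 RPM in Con, 14.4 ± 2.36 in HMD libraries and 17.0 ± 1.33 in Bet+HMD libraries (SD, n = 3), and none reached the filter for a test. Of their defining members, Ms4a1, which encodes CD20, had 0 to 2 reads a library and Cd79a, a signaling chain of the B cell receptor, 0 to 6, while Blk and Vpreb2 were at 0 throughout. Most reads of the list came from Ebf1 and Blnk, which other cells also express. Blnk had 47 to 61 reads in each Con and HMD library and 67, 74 and 64 in Bet+HMD, without overlap. The mean of Ebf1 was highest in HMD, at 0.673 FPKM beside 0.415 in Con and 0.592 in Bet+HMD. Other members differed in direction: Cr2, a complement receptor of B cells, had 2 to 15 reads in each Con and HMD library and 35, 26 and 21 in Bet+HMD, without overlap. Pax5, a factor of B cell identity, had 8, 14 and 11 reads in Con, 0, 0 and 4 in HMD and 1, 4 and 5 in Bet+HMD. Their part in the immunoglobulin differences was not tested.

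Plasma cell genes summed to 73.3 ± 10.2, 68.4 ± 3.96 and 70.6 ± 2.16 RPM in Con, HMD and Bet+HMD (SD, n = 3), a sum set mostly by Xbp1, a factor of the secretory pathway in many cells. Xbp1 was the single gene of the 10 with a test, and it did not pass in any of the 3 comparisons. Jchain, which links IgM and IgA into polymers, had 25, 36 and 29 reads in Con, 33, 20 and 28 in HMD and 48, 47 and 64 in Bet+HMD. The Bet+HMD libraries were above all others for Jchain. Other members of the list differed in direction. Sdc1 had 16, 26 and 25 reads in Con, 37, 23 and 13 in HMD and 11, 15 and 21 in Bet+HMD. Its mean was lowest in Bet+HMD, and the groups overlapped. Derl3 had a mean of 0.505 FPKM in Con, 0.303 in HMD and 0.315 in Bet+HMD. Mzb1, a chaperone of antibody secretion, had 0 to 7 reads a library, and Tnfrsf17, the receptor BCMA of plasma cells, had 0 to 2.

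Among the genes of V(D)J recombination and diversification, Rag2, a subunit of the recombinase, had no read in any library. Rag1, the other subunit, had 1 to 11 reads in each library, and Dntt had 0 to 5. Of the 19 genes in this list 13 were tested between Bet+HMD and HMD, with 5 higher and 2 lower. Over all genes 22.8% were called higher and 25.5% lower in that comparison. Against Con 4 of the list were higher and 2 lower, beside 19.4% and 20.4% of all genes. The list genes called higher against HMD were Dclre1c, Prkdc, Xrcc6, Polm and Atm, repair genes whose use is not limited to V(D)J recombination. Dclre1c, encoding the Artemis nuclease, rose by 0.81 ± 0.11 on the log2(FPKM + 1) scale against HMD (limma adjusted p = 0.000939). At 0.852 FPKM in Con and 0.877 in HMD, Dclre1c passed the filter only through the Bet+HMD libraries. It had to differ, so its part in both counts is no support. Prkdc, the DNA-dependent protein kinase, rose by 0.56 ± 0.13 (limma adjusted p = 0.0100). The 2 called lower against HMD were Xrcc5 and Poll, which each fell by 0.36 (limma adjusted p = 0.0357 and 0.0317). Of 11 transcription factors known from immunoglobulin loci, 8 were tested against HMD. Of these, 3 were higher and 2 lower, Yy1 and Foxo1, beside 22.8% and 25.5% of all genes. Against Con 7 of the factors were tested, with 3 higher and 0 lower, beside 19.4% and 20.4% of all genes. Pou2f2, which encodes Oct-2, an activator of immunoglobulin promoters that neurons also express, had 99, 90 and 141 reads in Con, 100, 99 and 89 in HMD and 278, 307 and 323 in Bet+HMD. It rose by 0.86 ± 0.11 against HMD (limma adjusted p = 0.000911). At 0.779 FPKM in Con and 0.707 in HMD, Pou2f2 passed the filter only through the Bet+HMD libraries. It thus had to differ, and its calls in both comparisons are no support.

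Fc receptors and immunoglobulin carriers, which bind or move antibody, gave 0 calls in each comparison by limma and by limma voom, with 2 of 3 tested genes at an unadjusted p under 0.05 between Bet+HMD and HMD and none in the others. Under other settings at most 1 of the list was called against HMD, with the filter of 10 reads, the replicate block, or HMD 1 or HMD 2 left out. Against Con there was 1 call without a filter or with that of 10 reads, and 2 calls without Con 2. Of the 11 genes of the list, 4 were tested between HMD and Con and 3 in each comparison with Bet+HMD. Fcgr1 was under the filter in both comparisons with Bet+HMD. It had 58, 53 and 55 reads in Con, 40, 39 and 35 in HMD and 24, 29 and 27 in Bet+HMD, without overlap. Fcgrt, the neonatal Fc receptor, had 142 to 230 reads a library. Pigr, the carrier of polymeric IgA, had 44 reads in Con 2 and 0 to 9 elsewhere. Of 9 microglial genes 5 were called lower in Bet+HMD against HMD and 5 against Con, 0 higher in either. Over all genes 25.5% were called lower against HMD and 20.4% against Con. Red cell genes summed to 93.3 ± 23.1, 153.6 ± 37.7 and 82.7 ± 20.4 RPM in Con, HMD and Bet+HMD, and fibroblast and meningeal genes to 97.5 ± 10.1, 82.7 ± 20.7 and 70.6 ± 5.26 (SD, n = 3). Neither of these sums had its highest mean in Bet+HMD, while Col1a1 of the second list did. Its mean was 1.15 FPKM in Con, 1.17 in HMD and 1.32 in Bet+HMD. The part of blood or meninges in the immunoglobulin differences was not tested. Choroid plexus genes varied widely, from 995 to 4212 RPM in Con, from 1099.5 to 3303 in HMD and from 1330 to 1685 in Bet+HMD.

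T cell receptor segments, which are assembled by the same recombinase, served as the nearest comparison. Of 226 such segments 29 had a read, and they summed to 2.01 ± 0.273 RPM in Con, 2.41 ± 0.585 in HMD libraries and 2.73 ± 0.226 in Bet+HMD libraries (SD, n = 3). Together they had 32 to 39 reads a library in Con, 29 to 50 in HMD and 41 to 48 in Bet+HMD. All Bet+HMD libraries thus lay above all Con libraries, while Bet+HMD and HMD overlapped. The T cell receptor V segments alone had 4 to 20 reads a library in Con, 9 to 13 in HMD and 7 to 18 in Bet+HMD. For these V segments the groups overlapped, unlike for the immunoglobulin V segments. The 161 immunoglobulin pseudogenes had 2 reads in the 9 libraries together. T cell marker genes summed to 2.57, 3.70 and 3.45 RPM, and the ranges of the 3 groups overlapped.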

How the data were processed

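Total RNA of mouse hippocampus was sequenced in 9 samples. Per the study's methods, ribosomal RNA was depleted and stranded paired-end libraries were sequenced. The submitters' processing notes name HISAT2 2.1.0, featureCounts 1.5.0-p3 and mm10, and the study's methods name other versions of both tools. Whether counting used the strand is not given in the sources used here. The authors deposited 2 tables of FPKM, with gene lengths in bases, another unit used as given. The later table, which holds all groups, was used here, and the earlier one (Con and HMD) served as an alternative. Columns named COL were read as Con by inference.

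FPKM multiplied by gene length and by a constant per column gave whole reads for 100% of values (tolerance 0.001), which gave depth and reads per 1000000 (RPM). Genes of a mean of at least 1 FPKM in the samples compared were tested with limma 3.58.1 (R 4.3.3) on log2(FPKM + 1), two-sided, with a trend and Benjamini-Hochberg adjustment. The study used count tools, which need deposited counts. The method was tested on simulated data. Ratios of reads carry exact 95% counting intervals (scipy 1.17.1), and the floor was 3 reads a library. All 264 members had the same position and strand in GENCODE M21. Members and gene lists were chosen with earlier results of these data known. Named were all constant genes, other members with at least 20 reads and called members. Alternatives were the pseudocount, filters, scaling, voom on recovered reads, 1 fit of all groups, a replicate block, leaving out each library, and for sums the members included.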

Additional observations from a re-analysis of the deposited data

How the results depend on the processing

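The 0 members called between HMD and Con stayed 0 under every alternative run, while over all genes a fit of all 3 groups called 9 (8 higher, 1 lower) in place of 0. The 6 calls of Bet+HMD against HMD and the 6 against Con became 15 each without a filter (14 higher, 1 lower), and 1 each with a mean of at least 5 FPKM, where fewer genes were tested. Leaving out 1 library gave 5 to 7 and 4 to 6 calls. The numbers in the titles did not pair the samples: correlations of deviations over genes ran from -0.176 to 0.337, and the replicate block gave 0, 6 and 6 calls. With values rescaled to TPM the median log2 difference of all genes was 0.16 against HMD and 0.17 against Con. On FPKM it was -0.025 and -0.039. With TPM 4496 of 6470 and 3980 of 5412 calls were higher, beside 3118 of 6607 and 2645 of 5422 on FPKM. Voom gave 3900 of 6801 and 3258 of 5520 higher.

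The summed difference was 20.6 RPM against HMD and 22.8 against Con, and 11.0 and 12.7 for constant region genes alone. With at least 3 reads asked for, 10.7, 13.7 and 25.7 members were detected per library in Con, HMD and Bet+HMD. V segments shared by Bet+HMD pairs were 24.7 on average and 5.44 after thinning. Leaving out 1 library turned signs in HMD against Con, where Igkc ran from -0.034 to 0.46, Ighm from -0.077 to 0.0061 and Igha from -0.13 to 0.080, and for Ighj1 in Bet+HMD against Con, which ran from -0.89 to 0.15. None of these was called. In the earlier table the HMD libraries held 350 to 431 immunoglobulin reads, beside 335 to 408 in the later one. Of the 218 V segments, 132 had no read and 16 had 1, too few to compare groups.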
